A study of Mus musculus with 6 samples.

Results

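ConA+D8THC libraries were set against Vehicle libraries to ask how the miRNAs of liver immune cells from challenged, cannabinoid-treated mice differed from those of mice with no disease. The comparison takes 2 ConA+D8THC and 2 Vehicle libraries, 4 of the 6 in the series, and all 1960 mature mouse miRNAs of the deposited count table. Of these, 778 had a count in at least 1 of the 4 libraries and 297 passed the filter on low counts and were tested. All mice were Wildtype C57BL/6J females aged 10 weeks. The Vehicle mice were given only DMSO in corn oil, without ConA. ConA+D8THC mice were injected through the retro-orbital sinus with 12.5 mg/kg of the lectin concanavalin A (ConA), which stimulates T cells and so brings on an immune-mediated hepatitis. They also received D8THC, the cannabinoid delta-8-tetrahydrocannabinol, as 20 mg/kg per dose in 100 µL of DMSO and corn oil. The first intraperitoneal dose preceded ConA by 15 to 18 h and the second followed it by 30 min. ConA and D8THC were given together in 1 group, so this comparison alone cannot tell their effects apart. The remaining group, ConA+Vehicle, received ConA and the oil vehicle, and its values are given where they bear on a result. The labels call the 2 libraries of a group biological replicates, and the number of mice behind each is not given in the sources used here. P-values therefore measure the spread between these libraries.

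A miRNA is a short RNA cut from a hairpin precursor that guides Argonaute proteins to messenger RNAs and lowers their stability or translation. Target choice rests mainly on the seed, bases 2 to 8 from the 5′ end, so miRNAs with the same seed form families. Each hairpin can yield a 5p and a 3p arm, and neighbouring hairpins are often transcribed together as a cluster. In liver, miR-122 belongs to hepatocytes and miR-126a to endothelium, while miR-142a belongs to blood-derived cells and miR-223 to neutrophils and other myeloid cells.

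The sequences that the main contrasts turn on are shown first, as RefSeq gives them for GRCm38.p6 (250 of the 297 tested miRNAs had one), with the seed in capitals. The first 4 are inflammation and myeloid miRNAs that were higher, with both arms of miR-21a.
miR-223-3p: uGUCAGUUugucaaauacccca
miR-155-5p: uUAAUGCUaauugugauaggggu
miR-21a-5p: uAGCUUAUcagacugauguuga
miR-21a-3p: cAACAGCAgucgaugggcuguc
The next 6 share the seed AAAGUGC, come from 3 paralogous clusters, and were higher except for miR-106b-5p.
miR-17-5p: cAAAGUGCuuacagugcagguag
miR-20a-5p: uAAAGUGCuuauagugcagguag
miR-20b-5p: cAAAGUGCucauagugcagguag
miR-106a-5p: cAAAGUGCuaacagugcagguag
miR-93-5p: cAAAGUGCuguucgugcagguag
miR-106b-5p: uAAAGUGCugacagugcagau
The miR-146 pair and the miR-130 pair are shown because members with the same seed received different calls, as did miR-93-5p and miR-106b-5p above, and let-7a-5p and let-7c-5p. Each of the 2 pairs differs at 2 of 22 positions counted from the 5′ end, outside the seed.
miR-146a-5p: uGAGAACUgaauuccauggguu
miR-146b-5p: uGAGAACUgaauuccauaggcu
miR-130a-3p: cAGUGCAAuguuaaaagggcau
miR-130b-3p: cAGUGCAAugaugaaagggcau
The last 6 are miRNAs that were lower: the pancreas-enriched pair with no count in ConA+D8THC, the macrophage miR-511-3p, miR-139-5p, miR-30c-5p and miR-10a-5p.
miR-216a-5p: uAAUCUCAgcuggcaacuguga
miR-217-5p: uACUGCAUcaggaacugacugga
miR-511-3p: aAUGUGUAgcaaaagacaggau
miR-139-5p: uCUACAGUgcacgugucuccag
miR-30c-5p: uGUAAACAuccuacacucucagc
miR-10a-5p: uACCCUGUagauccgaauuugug

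Library totals ran from 690713 to 1172389 counts in the 4 libraries and were 381274 and 322764 in ConA+Vehicle, and the 297 tested miRNAs held 99.9% of each. Endothelial markers (both arms of miR-126a) took 32.7% and 34.2% of the counts in Vehicle, 12.8% and 13.2% in ConA+Vehicle, and 20.7% and 26.7% in ConA+D8THC. For hepatocyte markers the shares were 8.35% and 13.9%, 17.1% and 19.7%, and 5.18% and 7.15%, the groups being in that order. Pan-haematopoietic miR-142a took 7.31% and 2.53%, 10.3% and 9.03%, and 11.2% and 7.72%. The label liver immune cells was thus met by miR-142a, but endothelial and hepatocyte markers each took a larger share than miR-142a in both Vehicle libraries. Exact 95% binomial intervals of these shares reach at most 0.137 percentage points either way and cover counting error only. In such bulk RNA, fewer cells of a type and less RNA per cell cannot be told apart, and the part of these marker shares in the results that follow was not tested.

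Of the 297 miRNAs, 97 (32.7%) were called at an adjusted p under 0.05 in edgeR's quasi-likelihood test, 55 higher (18.5%) and 42 lower (14.1%) in ConA+D8THC. Of these, 51 of 55 were at least 2-fold higher and 23 of 42 at least 2-fold lower. The median log2 fold change was 1.60 among those called higher, -1.09 among those called lower and -0.06 over all tested. All 97 had groups that did not overlap, which 222 of all 297 (74.7%) also had. In 217 miRNAs the filter was passed in both groups, and 35 of these were called higher and 34 lower (31.8%). Another 19 of the higher ones passed the filter through ConA+D8THC alone and 8 of the lower ones through Vehicle alone, so that these had to differ to be tested. More of the higher ones entered in this way, so the fold sizes above do not show which direction changed more. The miRNAs called higher took 7.33% and 3.94% of the counts in the Vehicle libraries and 19.9% and 14.8% in the ConA+D8THC libraries. They were chosen for being higher in these libraries, so this gives the size of the class and is no separate result. Without ConA+D8THC replicate 1, 63 miRNAs were called, 44 higher and 19 lower, so the count of lower miRNAs rests on that library more than the count of higher ones.

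**Figure D1:**
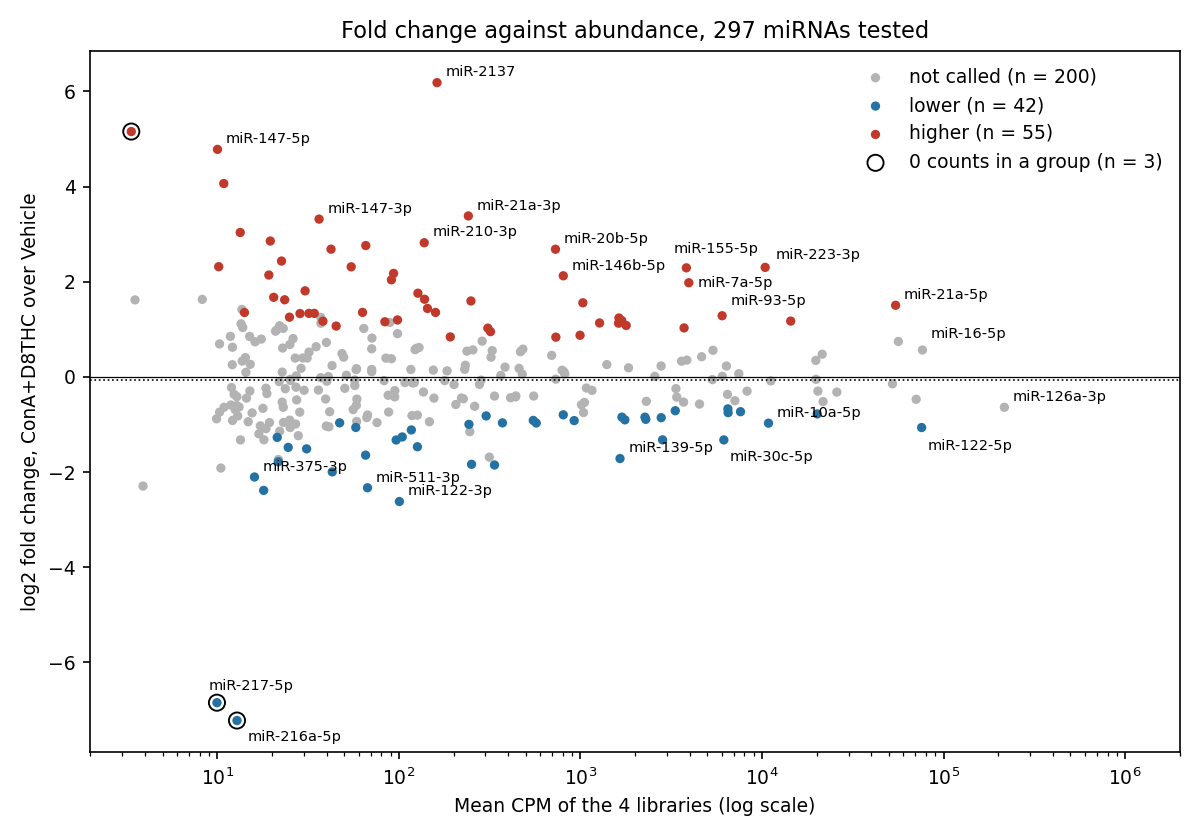
Each point is 1 of the 297 tested miRNAs, placed by its mean CPM over the 2 Vehicle and 2 ConA+D8THC libraries (log axis) and its log2 fold change (ConA+D8THC over Vehicle); red and blue mark miRNAs called higher (55) and lower (42), the dotted line the median of all tested (-0.06). Rings mark 3 miRNAs with 0 counts in a group, whose fitted values are no measure of size; the abundant increases of miR-155-5p, miR-7a-5p and miR-223-3p stand far above the line, while miR-126a-3p, the most abundant miRNA, was not called.

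Of 12 tested members of the inflammation-induced list, 7 rose and 5 were not called, beside 18.5% called higher over all tested, and the median log2 change was 1.43 against -0.06. Of the 7, miR-147-3p, miR-147-5p and miR-9-5p passed the filter through ConA+D8THC alone; of the 8 members that passed it in both groups 4 rose. miR-155-5p, which lymphocytes and macrophages make on activation and whose hairpin lies in an exon of Mir155hg (chromosome 16, 84714140 to 84714204, mm10), was at 1510 and 1090 CPM (counts scaled to library size) in Vehicle. It reached 7278 and 5455 CPM in ConA+D8THC, so that even the lower treated library was well above both controls. The rise was 4.90-fold (log2 2.29 ± 0.24 SE, adjusted p = 0.000164). miR-147-3p, which Toll-like receptor ligands induce in macrophages, had 6 counts in each Vehicle library and 81 and 34 in ConA+D8THC, or 8.27 and 5.25 CPM against 83.5 and 48.3 CPM. This was 9.96-fold higher (log2 3.32 ± 0.46, adjusted p = 0.000668). Its other arm, miR-147-5p, had 1 count over both Vehicle libraries, and the ratio to ConA+D8THC was 36.8, with a 95% counting interval from 6.16 to 1498.

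miR-21a, among the most abundant inducible miRNAs, rose in both arms, and the rarer arm rose more. miR-21a-5p was at 40306 and 16392 CPM in Vehicle and at 88925 and 72110 CPM in ConA+D8THC. The Vehicle libraries lay far apart from each other, replicate 1 being the higher, yet both stayed below the treated libraries. The rise was 2.84-fold (log2 1.51 ± 0.38, adjusted p = 0.0182) and was log2 2.29 without Vehicle replicate 1. miR-21a-3p went from 55.1 and 30.7 CPM to 541 and 338 CPM, which was 10.4-fold (log2 3.38 ± 0.36, adjusted p = 0.000164). The difference between the arms was not tested.

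The miR-146 pair, both known as feedback inhibitors of NF-kappaB signalling, received different calls. miR-146b-5p (chromosome 19, 46342762 to 46342870, in an intron of Mfsd13a) was at 360 and 242 CPM in Vehicle and 1466 and 1151 CPM in ConA+D8THC and rose 4.37-fold (log2 2.13 ± 0.27, adjusted p = 0.000419). The far more abundant miR-146a-5p (chromosome 11, 43374397 to 43374461) was at 24662 and 20150 CPM in Vehicle and 20058 and 16407 CPM in ConA+D8THC, with log2 -0.30 ± 0.23 and adjusted p = 0.319. Its groups were nearly adjacent, the higher treated library lying just under the lower control. As the sequences above show, the mature forms are close enough that reads could be assigned to the wrong one.

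Myeloid markers split. miR-223-3p (chromosome X, 96242817 to 96242926) was at 3430 and 3587 CPM in Vehicle and at 20275 and 14355 CPM in ConA+D8THC. The control libraries nearly coincided and both treated libraries were well above them, a rise of 4.93-fold (log2 2.30 ± 0.24, adjusted p = 0.000164). Its other arm, miR-223-5p, rose 4.52-fold, from 27.6 and 39.4 CPM to 176 and 131 CPM. miR-511-3p, made inside Mrc1, the mannose receptor gene of macrophages (intron, chromosome 2, 14261003 to 14261081), fell instead, from 141 and 84.1 CPM to 22.7 and 21.3 CPM. That was 5.02-fold lower (log2 -2.33 ± 0.38, adjusted p = 0.00143), while the rarer miR-511-5p overlapped between the groups (19.3 and 32.4 CPM against 30.9 and 18.5 CPM). Over the list of 7 tested myeloid markers, 2 rose, 3 fell and 2 were not called, beside 18.5% called higher and 14.1% called lower over all tested. The other 2 that fell were miR-125a-5p and let-7e-5p, which are also present in endothelial and other cells and which missed the threshold without Vehicle replicate 2 (adjusted p = 0.0751 and 0.0942) or ConA+D8THC replicate 1 (0.0630 and 0.0869), with log2 values from -0.76 to -0.61.

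**Figure D2:**
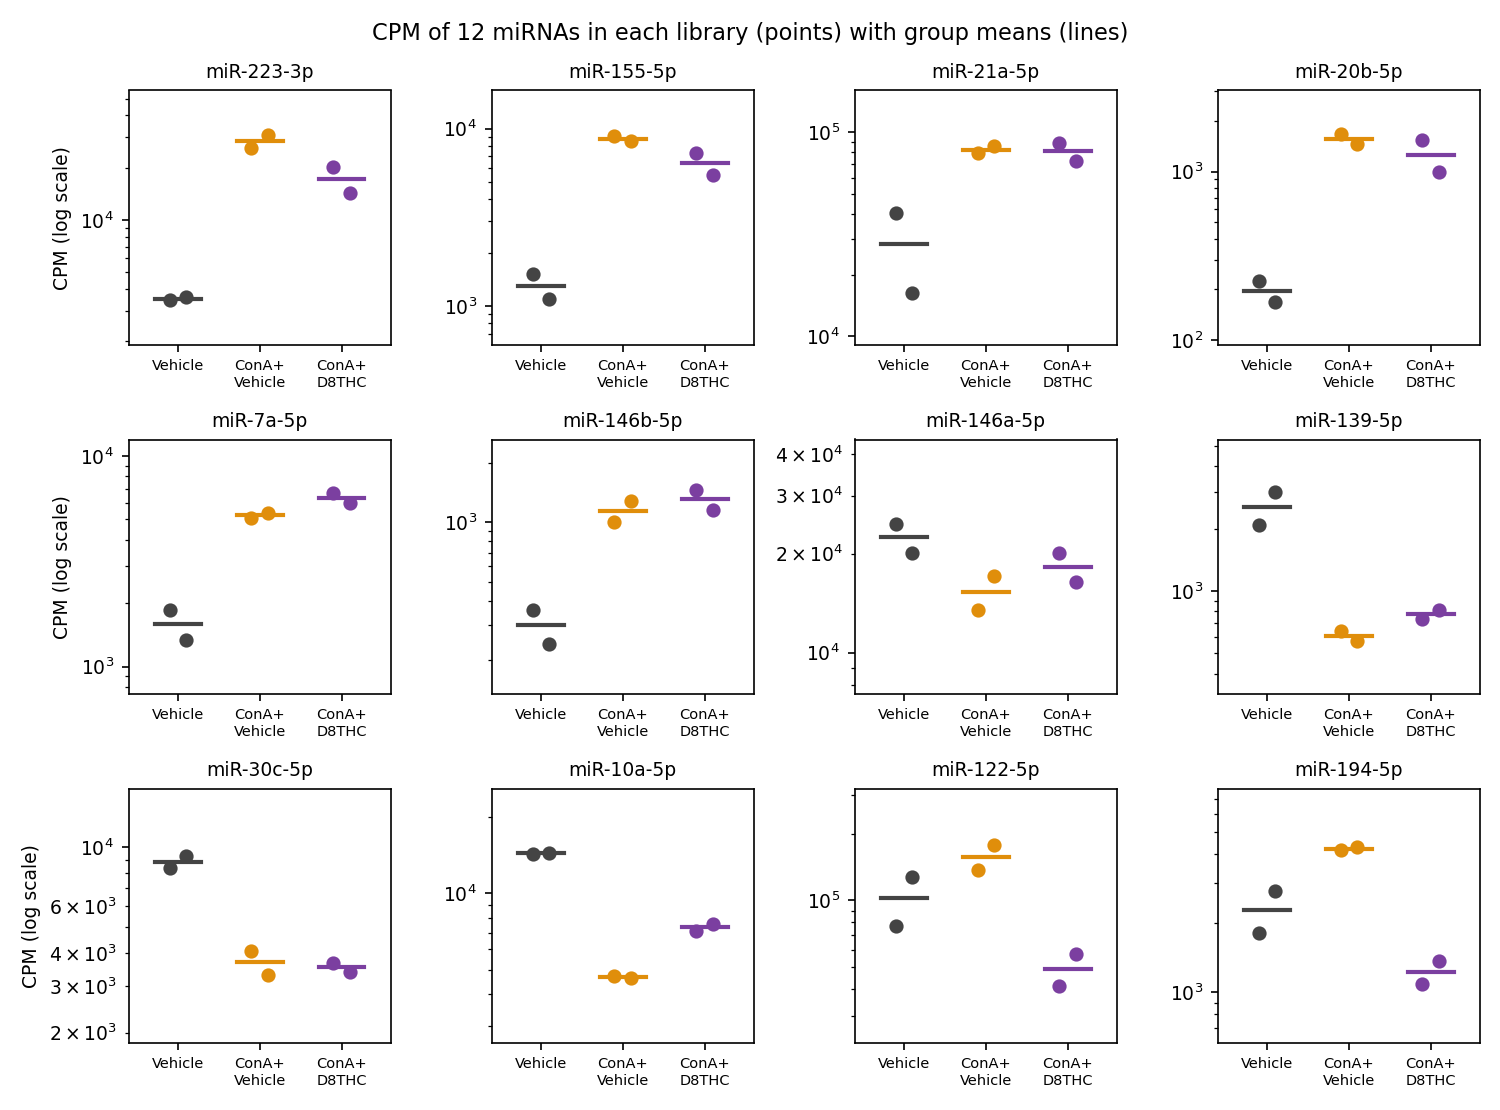
Points give the CPM of 12 miRNAs in each library on a log axis, 2 libraries for each of Vehicle, ConA+Vehicle and ConA+D8THC, and lines give the group means. In miR-223-3p, miR-155-5p, miR-21a-5p, miR-20b-5p, miR-7a-5p and miR-146b-5p both ConA+D8THC libraries lie above both Vehicle libraries; in miR-139-5p, miR-30c-5p, miR-10a-5p, miR-122-5p and miR-194-5p they lie below.

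Of 10 tested members of the resting lymphocyte list 1 rose and 9 were not called (median log2 -0.01), and of 5 lymphocyte markers, some of them the same miRNAs, 1 rose. Both shares are near the 18.5% called higher over all tested. miR-150-5p, a miRNA of mature B and T cells, was at 6688 and 4188 CPM in Vehicle and 6418 and 4037 CPM in ConA+D8THC, overlapping closely (log2 -0.06 ± 0.29, adjusted p = 0.883). The member that rose was miR-342-3p, from an intron of Evl, at 1202 and 1092 CPM in Vehicle and 2959 and 1893 CPM in ConA+D8THC (2.12-fold, adjusted p = 0.0102). Its call rested on the higher treated library, since without ConA+D8THC replicate 1 the log2 change was 0.74 and the adjusted p 0.0543. The other arm, miR-342-5p, was at 29.0 and 22.8 CPM against 21.7 and 21.3 CPM and was not called. All 4 tested members of the miR-181 family, known for tuning T cell receptor sensitivity, and all 3 of the miR-29 family were not called, with medians of -0.32 and 0.33; DESeq2 called 0 of these 7, and 0 passed 0.05 before adjustment.

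Of the 12 tested members of the T cell activation list, 3 rose and 3 fell, beside 18.5% and 14.1% over all tested, the latter being miR-214-3p, miR-23a-3p and miR-24-3p, whose values stand with the stellate markers and the clusters. miR-210-3p, the miRNA most closely tied to hypoxia, went from 44.1 and 25.4 CPM to 280 and 202 CPM, without overlap, and was 7.06-fold higher (log2 2.82 ± 0.36, adjusted p = 0.000419). The clustered miR-221-3p and miR-222-3p, which act on the cell cycle inhibitor p27, were 1.84-fold and 2.29-fold higher. Each missed the threshold without ConA+D8THC replicate 1 (log2 0.72, adjusted p = 0.0635, and log2 1.10, adjusted p = 0.101). miR-142a-5p of blood-derived cells was at 12164 and 5523 CPM in Vehicle and at 23594 and 16305 CPM in ConA+D8THC (2.26-fold, adjusted p = 0.0354), and without Vehicle replicate 1 its log2 change went from 1.17 to 1.85. Its partner miR-142a-3p was not called: the Vehicle libraries stood at 63766 and 20449 CPM and the treated ones at 81692 and 59522 CPM, so that the groups overlapped. Without Vehicle replicate 1, miR-142a-3p had a log2 change of 1.78 and an adjusted p of 2.21e-05.

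The paralogous clusters of the miR-17 to miR-92 family are known for driving proliferation of lymphocytes. Among 17 tested members 14 rose and 3 were not called, beside 18.5% called higher over all tested. The median log2 change was 1.34, and of the 14 members past the filter in both groups 12 rose. All 8 tested arms of the Mir17hg cluster (chromosome 14, 115043671 to 115044506) rose, by log2 1.03 to 2.04. All 6 of the X-linked miR-106a to miR-363 cluster (chromosome X, 52741693 to 52742567) rose as well, by log2 1.24 to 2.76. Of these, miR-18b-5p and miR-363-3p did not pass the filter in both groups. Both clusters contain hairpins of miR-19b-3p and miR-92a-3p, whose reads cannot be divided between them. In the third cluster, inside Mcm7 (chromosome 5, 138165321 to 138165818), 3 of 6 arms rose.

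miR-20b-5p of the X-linked cluster had 225 and 169 CPM in Vehicle and 1532 and 989 CPM in ConA+D8THC. It was 6.43-fold higher (log2 2.68 ± 0.28, adjusted p = 0.000164), and even the lower treated library was far above both controls. miR-106a-5p, which differs from miR-17-5p at 1 of 23 positions, went from 62.0 and 54.3 CPM to 217 and 176 CPM (log2 1.76 ± 0.33), and miR-17-5p from 216 and 191 CPM to 405 and 424 CPM (log2 1.03 ± 0.24). miR-93-5p, the most abundant member, rose 2.44-fold, from 4057 and 2960 CPM to 9780 and 7329 CPM (adjusted p = 0.00293). The seed AAAGUGC thus rose in 5 of 6 tested miRNAs, and the exception, miR-106b-5p, was at 74.4 and 48.2 CPM against 65.0 and 41.2 CPM (log2 -0.18 ± 0.38). Its own hairpin's other arm, miR-106b-3p, just missed the threshold (log2 1.02 ± 0.36, adjusted p = 0.0519).

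Among the 4 tested miRNAs with the seed AUUGCAC, miR-25-3p, miR-92a-3p and miR-363-3p rose. miR-25-3p was at 2750 and 2145 CPM in Vehicle and 5652 and 4344 CPM in ConA+D8THC (log2 1.03 ± 0.22), and miR-92a-3p at 546 and 500 CPM against 1764 and 1315 CPM (log2 1.56 ± 0.23). miR-363-3p rose by log2 2.31 ± 0.48 and by 3.09 without Vehicle replicate 1. At a mean of 19.0 CPM in Vehicle, miR-363-3p did not pass the filter in that group. miR-32-5p, which lies outside these clusters, had 159 and 41.2 CPM in Vehicle and 158 and 134 CPM in ConA+D8THC and was not called. Vehicle replicate 1 was also high for several members of the Mir17hg cluster: without it the log2 change of miR-20a-5p went from 1.19 to 1.77 and that of miR-19a-3p from 1.60 to 2.46. The call of miR-92a-1-5p was lost without Vehicle replicate 2 (log2 1.01, adjusted p = 0.122) or ConA+D8THC replicate 1 (log2 1.00, adjusted p = 0.198). miR-25-5p and miR-18b-5p rose by log2 3.04 and 2.76 and passed the filter through ConA+D8THC alone; without Vehicle replicate 1 these were 4.50 and 3.82, and without Vehicle replicate 2 they were 2.10 and 2.07.

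**Figure D3:**
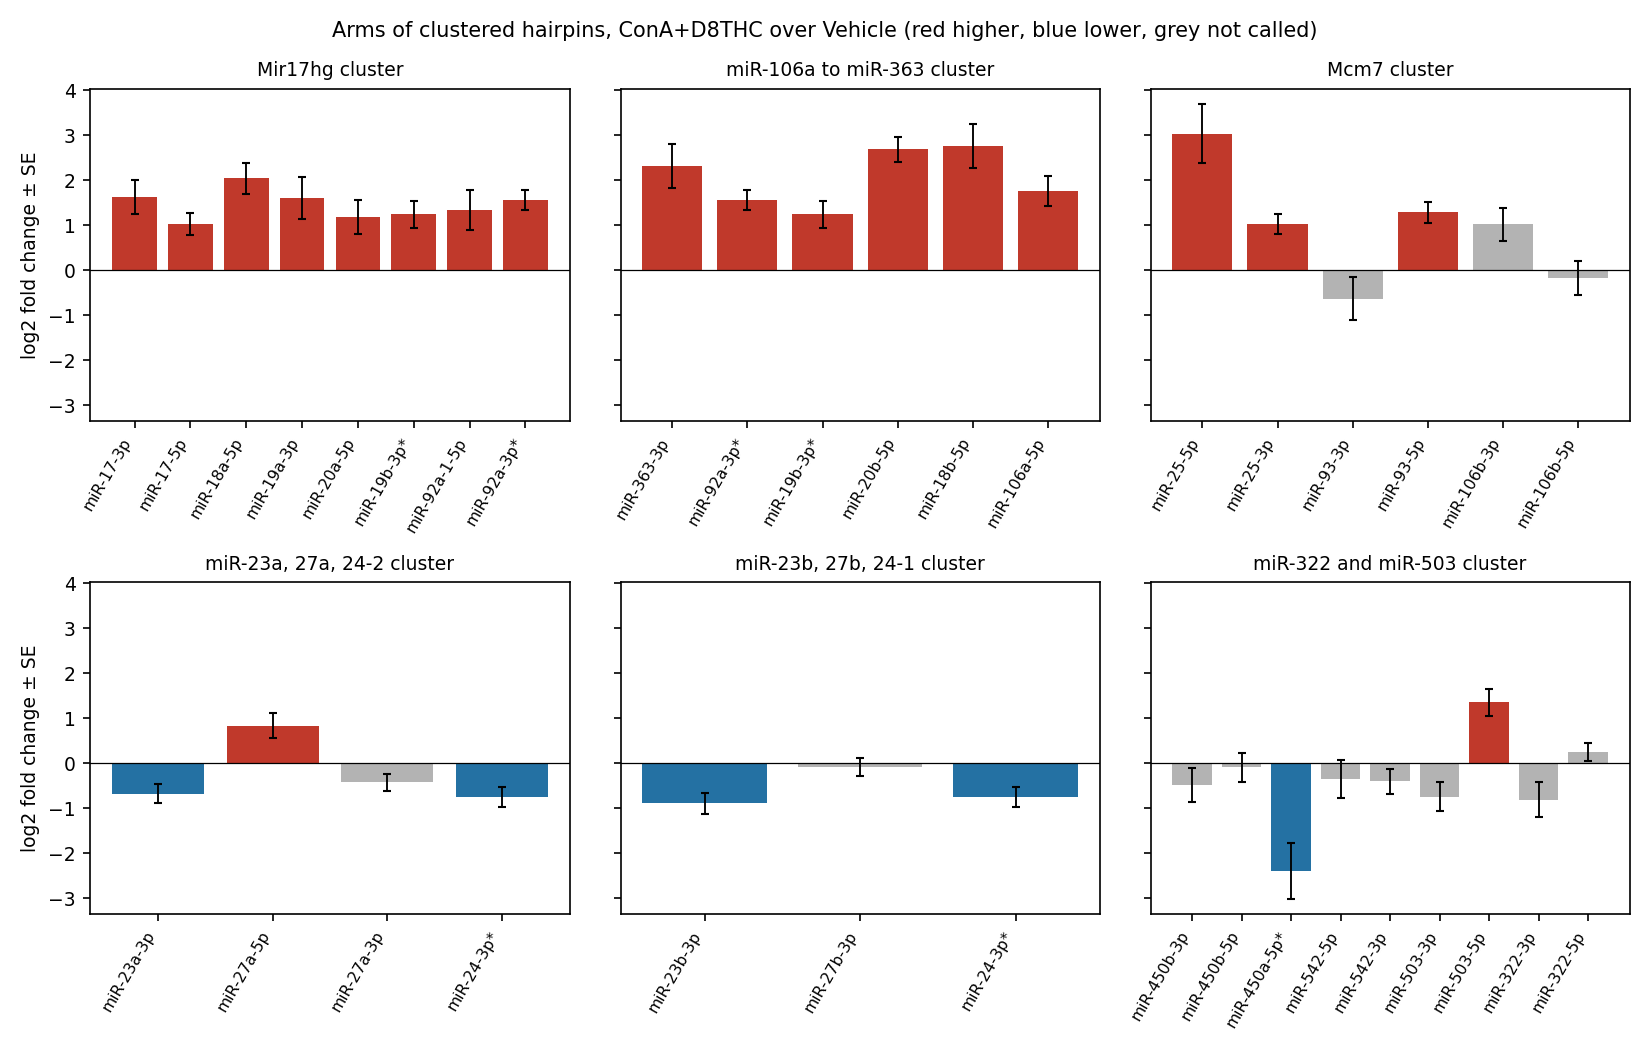
Bars give the log2 fold change (ConA+D8THC over Vehicle) with its standard error for the tested arms of 6 hairpin clusters, in genomic order; an asterisk marks a miRNA made by more than 1 hairpin. Every bar of the Mir17hg and miR-106a to miR-363 clusters is called higher. The miR-322 and miR-503 cluster holds 1 arm called higher, 1 lower and 7 not called, beside 18.5% higher and 14.1% lower over all tested.

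Other clusters divided. In the miR-322 and miR-503 cluster (chromosome X, 53047997 to 53054349), miR-503-5p, which restrains cell cycle genes, was at 80.0 and 98.1 CPM in Vehicle and 204 and 254 CPM in ConA+D8THC (2.56-fold higher, adjusted p = 0.00675). The opposite arm miR-503-3p had 109 and 110 CPM against 56.7 and 75.3 CPM, lower in both treated libraries but not called (adjusted p = 0.0972). In the same cluster miR-450a-5p fell from 44.1 and 16.6 CPM to 4.12 and 7.11 CPM (log2 -2.38 ± 0.62, adjusted p = 0.0176). It passed the filter through Vehicle alone, so that it had to differ to be tested. The call was lost without Vehicle replicate 1 (log2 -1.59) and with DESeq2 (adjusted p = 0.0653). The miR-23a, miR-27a and miR-24-2 cluster held 1 arm that rose, miR-27a-5p, and 2 that fell, miR-23a-3p and miR-24-3p; reads of miR-24-3p can also come from the miR-23b cluster. Each of these 3 calls was lost without Vehicle replicate 2 (adjusted p from 0.150 to 0.196, log2 0.75, -0.48 and -0.46) or ConA+D8THC replicate 1 (adjusted p from 0.0809 to 0.205, log2 0.72, -0.74 and -0.68). miR-23a-3p also missed the threshold without any other library except Vehicle replicate 1, with log2 from -0.65 to -0.56, and miR-24-3p without ConA+Vehicle replicate 2 (log2 -0.69) or ConA+D8THC replicate 2 (log2 -0.79). With library totals as the scale, miR-23a-3p and miR-24-3p had adjusted p-values of 0.0674 and 0.0521. With no filter on counts, miR-27a-5p, miR-23a-3p and miR-24-3p also missed the threshold (adjusted p = 0.116, 0.138 and 0.0746). With a filter at a mean of 10 CPM, miR-23a-3p missed it as well (0.0846).

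miR-130a-3p and miR-130b-3p share the seed AGUGCAA and were called in opposite directions. miR-130a-3p (chromosome 2, 84741115 to 84741178), known from endothelial and myeloid cells, was at 354 and 417 CPM in Vehicle and 174 and 264 CPM in ConA+D8THC (log2 -0.82 ± 0.27, adjusted p = 0.0399). miR-130b-3p (chromosome 16, 17124061 to 17124142) was at 66.2 and 38.5 CPM against 135 and 95.2 CPM (log2 1.16 ± 0.39, adjusted p = 0.0406). Both calls were narrow. Without Vehicle replicate 2 their log2 values were -0.66 and 0.84, and without ConA+D8THC replicate 1 they were -0.53 and 0.90, with adjusted p-values from 0.150 to 0.287. miR-130a-3p also missed the threshold without either ConA+Vehicle library (adjusted p = 0.0504 and 0.0683, log2 -0.80 and -0.75) and with library totals (0.0647). With no filter on counts, miR-130a-3p had an adjusted p of 0.100. The third tested miRNA with this seed, miR-301a-3p, was not called (log2 0.16 ± 0.27).

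miR-7a-5p, known for repressing epidermal growth factor receptor and insulin receptor substrate messages, was among the abundant miRNAs with the smallest adjusted p-values. It was at 1863 and 1336 CPM in Vehicle and at 6658 and 5953 CPM in ConA+D8THC, both treated libraries being well above both controls. The rise was 3.94-fold (log2 1.98 ± 0.23, adjusted p = 0.000207). More than 1 hairpin can make it, 1 of them in an intron of Hnrnpk, and the mature reads do not tell them apart.

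Among miRNAs that fell, several were moderately abundant. miR-139-5p, whose hairpin sits in a Pde2a intron (chromosome 7, 101475376 to 101475443), went from 2074 and 2991 CPM to 730 and 814 CPM, 3.28-fold lower (log2 -1.71 ± 0.24, adjusted p = 0.000668). miR-652-3p, from an intron of Tmem164, went from 408 and 377 CPM to 110 and 109 CPM, 3.57-fold lower. The treated libraries were nearly identical in it and no library overlapped between the groups. miR-151-5p, from an intron of Ptk2, went from 430 and 622 CPM to 115 and 178 CPM, 3.61-fold lower, and its other arm miR-151-3p fell by 1.64 on the log2 scale. miR-345-5p was at 37.2 and 31.5 CPM against 16.5 and 1.42 CPM (log2 -1.78 ± 0.62, adjusted p = 0.0483), the treated libraries being far apart. It passed the filter through Vehicle alone. Its call was lost without Vehicle replicate 1 (log2 -1.67, adjusted p = 0.0625) or ConA+D8THC replicate 2 (log2 -0.99, adjusted p = 0.186) and with library totals (0.0784), and without ConA+D8THC replicate 1 its log2 change was -4.40. For miR-151-3p the call was lost without ConA+D8THC replicate 1 (log2 -1.36, adjusted p = 0.0665).

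The miR-30 family divided by member. miR-30c-5p was at 8347 and 9271 CPM in Vehicle and 3663 and 3377 CPM in ConA+D8THC, 2.50-fold lower (log2 -1.32 ± 0.21, adjusted p = 0.00118), and miR-30b-5p was at 4401 and 3699 CPM against 1698 and 1541 CPM, also 2.50-fold lower. miR-30a-5p and miR-30e-5p, which share the seed GUAAACA with miR-30c-5p, were not called (log2 -0.30 and 0.43), nor was miR-30d-5p (0.07). miR-30b and miR-30d come from 1 cluster and received different calls. miR-30c-5p comes from 2 hairpins, 1 of them beside miR-30e, and its reads cannot be assigned to either. The third member that fell, miR-30a-3p (log2 -0.92), missed the threshold without Vehicle replicate 2 (log2 -0.62, adjusted p = 0.133) or ConA+D8THC replicate 1 (log2 -0.75, adjusted p = 0.0684).

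Of 5 tested members of the miR-10, miR-99 and miR-100 family, 4 fell (median log2 -0.97), beside 14.1% called lower over all tested. miR-10a-5p, from the Hoxb region (chromosome 11, 96317165 to 96317274), had 14332 and 14440 CPM in Vehicle and 7129 and 7548 CPM in ConA+D8THC, 1.96-fold lower with tight replicates (log2 -0.97 ± 0.20, adjusted p = 0.00462). miR-100-5p, miR-99a-5p and miR-10b-5p fell by similar amounts (log2 -0.97, -0.80 and -0.97), and each missed the threshold without ConA+D8THC replicate 1 (log2 -0.81, -0.67 and -0.73, adjusted p from 0.0641 to 0.127). Without Vehicle replicate 1, miR-99a-5p and miR-10b-5p had adjusted p-values of 0.0503 and 0.0647 (log2 -0.76 and -0.80). miR-99a-5p was also lost without ConA+Vehicle replicate 2 (log2 -0.72) or ConA+D8THC replicate 2 (log2 -0.86) and with no filter on counts (adjusted p = 0.0962).

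In the let-7 family, which opposes proliferation and growth factor messages, 4 of 10 tested members fell, beside 14.1% over all tested. The median log2 change was -0.55. let-7c-5p, the most abundant of the 4, was at 22375 and 28563 CPM in Vehicle and 13141 and 16579 CPM in ConA+D8THC (log2 -0.78 ± 0.23, adjusted p = 0.0264). The other arm of a let-7b hairpin, let-7b-3p, went from 49.6 and 87.6 CPM to 17.5 and 17.1 CPM (log2 -1.99 ± 0.40, adjusted p = 0.00462). let-7i-5p, with the same seed as let-7c-5p, pointed the other way at 17900 and 17962 CPM against 23759 and 26188 CPM, and was not called (log2 0.48 ± 0.21, adjusted p = 0.0966; 0.0345 with library totals). let-7b-5p, let-7c-5p and let-7d-5p each missed the threshold when Vehicle replicate 2, ConA+Vehicle replicate 2 or either ConA+D8THC library was left out, with log2 from -0.92 to -0.50 and adjusted p from 0.0630 to 0.220. With no filter on counts, let-7b-5p, let-7c-5p and let-7d-5p also missed it (adjusted p = 0.0919, 0.0647 and 0.124). let-7d-5p did so with a filter at a mean of 10 CPM too (0.0658). Of 6 tested members of the miR-15 and miR-16 family 2 fell, beside 14.1% over all tested and both on narrow calls, the clustered miR-195a-5p (677 and 758 CPM to 323 and 441 CPM) and miR-497a-5p (305 and 342 CPM to 135 and 190 CPM). Both were lost without Vehicle replicate 2 (log2 -0.79 and -0.87, adjusted p = 0.0689 and 0.0733) or ConA+D8THC replicate 1 (log2 -0.69 and -0.75, adjusted p = 0.121 and 0.158). miR-16-5p, the second most abundant miRNA, was at 58321 and 65096 CPM against 92914 and 89805 CPM and was not called (log2 0.57 ± 0.21, adjusted p = 0.0615; 0.0194 with library totals).

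**Figure D4:**
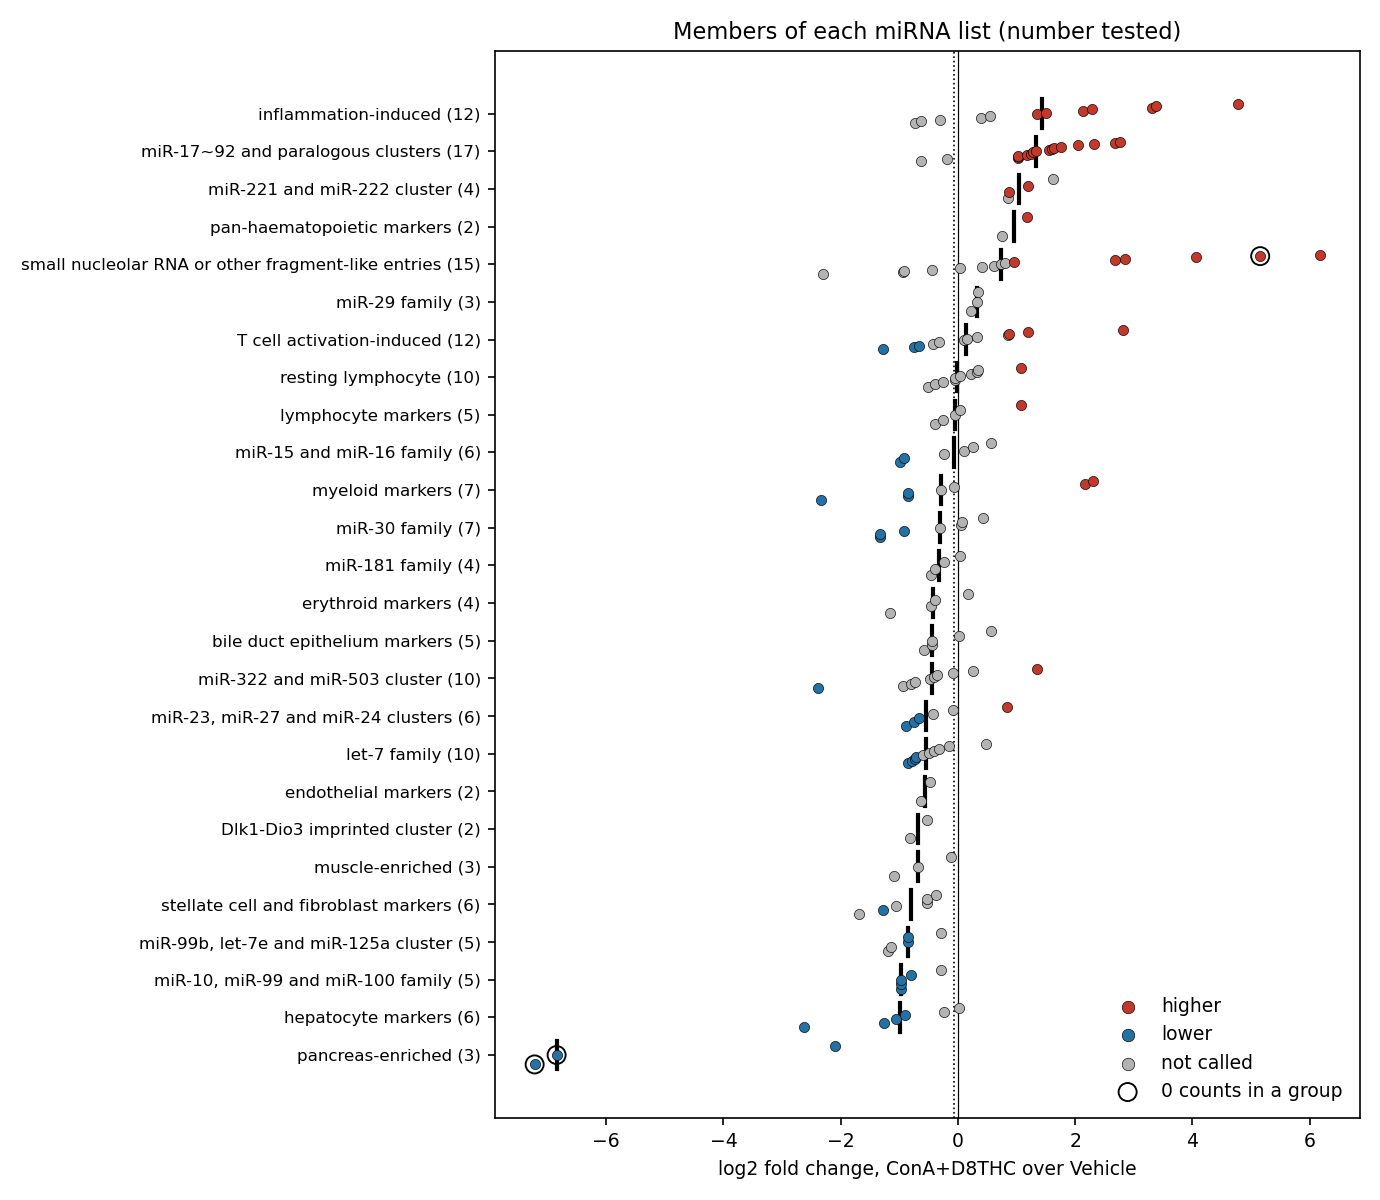
Each point is a tested miRNA of a list, placed by its log2 fold change (ConA+D8THC over Vehicle) and coloured by its call; black ticks are list medians of the fitted values, the dotted line is the median of all 297 (-0.06), and rings mark a miRNA with 0 counts in a group. The inflammation-induced and miR-17 to miR-92 lists sit to the right (medians 1.43 and 1.34) and the hepatocyte and pancreas lists at the lower left.

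Most tested hepatocyte markers, but not all, were called lower than in unchallenged mice. Of 6 tested hepatocyte markers, 4 fell and 2 were not called (median log2 -0.98), beside 14.1% called lower over all tested. miR-122-5p, which supports lipid metabolism in hepatocytes, was at 76848 and 128017 CPM in Vehicle and 41006 and 57049 CPM in ConA+D8THC, without overlap although the Vehicle libraries differed widely. It was 2.09-fold lower (log2 -1.06 ± 0.30, adjusted p = 0.0207), and the call was lost without Vehicle replicate 2 (log2 -0.61, adjusted p = 0.132) or ConA+D8THC replicate 1 (log2 -0.83, adjusted p = 0.129). The rare arm miR-122-3p fell more clearly, from 157 and 189 CPM to 27.8 and 28.4 CPM (6.14-fold, log2 -2.62 ± 0.34, adjusted p = 0.000439). This arm kept its call without each library in turn.

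miR-194-5p went from 1810 and 2767 CPM to 1081 and 1372 CPM (log2 -0.90 ± 0.25, adjusted p = 0.0199) and was lost without the same libraries (log2 -0.53 and -0.73, adjusted p = 0.150 and 0.0780). miR-802-5p, linked to hepatic insulin resistance, went from 119 and 174 CPM to 35.1 and 89.5 CPM (log2 -1.26 ± 0.42, adjusted p = 0.0415). Its treated libraries differed from each other by more than those of the other hepatocyte markers. It was lost without Vehicle replicate 2 (log2 -0.92, adjusted p = 0.0871), without ConA+D8THC replicate 1 (log2 -0.70, adjusted p = 0.228) and with library totals (adjusted p = 0.0612), and was at log2 -2.04 without ConA+D8THC replicate 2. miR-192-5p (3029 and 4252 CPM against 2391 and 3758 CPM) and miR-148a-3p (4852 and 7176 CPM against 4238 and 7917 CPM) overlapped between the groups and were not called.

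The 3 tested pancreas-enriched miRNAs, at low levels in every Vehicle library, were all called lower, beside 14.1% over all tested. miR-216a-5p and miR-217-5p, neighbours on chromosome 11 (28757012 to 28757083 and 28763728 to 28763835), had 50 and 38 counts over the Vehicle libraries and 0 in both ConA+D8THC libraries. Against a floor of 3 counts over the group they were at least 14.9-fold and at least 11.4-fold lower. miR-375-3p, known from pancreatic islets and other epithelial cells, was at 29.0 and 23.6 CPM in Vehicle and 7.22 and 4.26 CPM in ConA+D8THC. It was 4.29-fold lower (adjusted p = 0.0182), but DESeq2 did not call it (adjusted p = 0.0565). All 3 passed the filter through Vehicle and not through ConA+D8THC. As for miR-450a-5p, they had to differ to be tested, so the share of them called lower is no separate result. The median of the 3 was log2 -3.50 with the first 2 at their bounds.

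Markers of most other cell types were not called in edgeR's test on all 6 libraries, though some were under other settings. Endothelial miR-126a-3p (chromosome 2, 26591357 to 26591429, in Egfl7), the most abundant miRNA, was at 241922 and 284632 CPM in Vehicle and 145317 and 193105 CPM in ConA+D8THC, lower in both treated libraries (log2 -0.64 ± 0.24, adjusted p = 0.0615; 0.0440 without Vehicle replicate 1 and 0.0463 with limma-voom). Of 5 bile duct markers, 4 erythroid markers and 3 muscle-enriched miRNAs, 0 were called by edgeR's test or by DESeq2, and 1 of the 12 had an unadjusted p under 0.05. Of 6 stellate cell and fibroblast markers 1 fell, a share near the 14.1% over all tested. This was miR-214-3p, which passed the filter through Vehicle alone, at 26.2 and 34.2 CPM against 12.4 and 12.8 CPM (log2 -1.27 ± 0.40, adjusted p = 0.0341). It missed the threshold without Vehicle replicate 2, ConA+Vehicle replicate 2 or either ConA+D8THC library (log2 from -1.26 to -1.01, adjusted p from 0.0537 to 0.203) and with DESeq2 (0.278). miR-214-3p also missed the threshold with no filter on counts (adjusted p = 0.105) and with a filter at a mean of 10 CPM (0.0579). Erythroid miR-451a was at 470 and 209 CPM against 162 and 142 CPM (log2 -1.15 ± 0.53, adjusted p = 0.131). It was called lower without Vehicle replicate 2 (log2 -1.59, adjusted p = 0.000322), without either ConA+Vehicle library (0.0272 and 0.0106), with the 4 libraries alone (0.0137) and with no filter (0.0226). Stellate miR-145a-5p was at 466 and 494 CPM against 117 and 183 CPM (log2 -1.68 ± 0.59, adjusted p = 0.0617), and was called lower without either ConA+Vehicle library (0.000598 and 2.12e-05), with the 4 libraries alone (3.14e-05), with no filter (9.12e-05) and with limma-voom (0.0244). Muscle miR-1a-3p stood at 20.6 CPM in ConA+D8THC replicate 1 and 209 CPM in replicate 2, against 132 and 114 CPM in Vehicle, so that the treated libraries differed from each other more than the groups did. Without ConA+D8THC replicate 2 its log2 change was -2.51 (adjusted p = 7.97e-05).

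Some table entries are short hairpins that may hold fragments of other RNAs, and these were described apart. Of 15 tested fragment-like entries, 6 were higher and 9 not called (median log2 0.74), beside 18.5% called higher over all tested. Of the 4 entries past the filter in both groups, 1 was higher. Of these 6, 5 did not pass the filter in both groups, and miR-5099 did. miR-2137, in an intron of Zfp185, had 1.38 and 6.13 CPM in Vehicle and 115 and 526 CPM in ConA+D8THC (72.7-fold, adjusted p = 0.00307), and its treated libraries differed several-fold. It missed the threshold without Vehicle replicate 1 (log2 5.65, adjusted p = 0.146), Vehicle replicate 2 (log2 7.69, adjusted p = 0.214) or ConA+Vehicle replicate 2 (log2 6.25, adjusted p = 0.0878). Leaving out ConA+D8THC replicate 1 or 2 moved it from log2 6.18 to 6.91 or 4.74.

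miR-6538 and miR-6240 were at 8.27 and 1.75 CPM and at 4.14 and 16.6 CPM in Vehicle, and at 18.6 and 49.7 CPM and 36.1 and 112 CPM in ConA+D8THC. In both, replicate 2 was the higher treated library. Their log2 changes were 2.86 ± 0.70 and 2.69 ± 0.71 and, across the 4 libraries left out in turn, ran from 2.02 (without Vehicle replicate 2) to 4.11 (without Vehicle replicate 1) and from 1.68 (without ConA+D8THC replicate 2) to 4.11 (without Vehicle replicate 2); without Vehicle replicate 1, miR-6240 was not called (log2 2.12, adjusted p = 0.113). miR-1983 had 2 counts over the Vehicle libraries and a ratio of 19.5 with a 95% counting interval from 5.02 to 168. miR-6236 had 0 counts in Vehicle and 10 in ConA+D8THC, at least 3.72-fold higher, a call lost without ConA+D8THC replicate 2 (adjusted p = 0.149).

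Both arms were tested for 66 hairpins, and the arms of 45 had fitted changes of the same sign. In 8 hairpins both arms were called, always in the same direction: miR-17, miR-21a, miR-25, miR-147 and miR-223 higher and let-7b, miR-122 and miR-151 lower. In 26 hairpins 1 arm was called and in 32 neither was, beside 32.7% of miRNAs called over all tested. Whether arms of 1 hairpin were called together more often than that share gives was not tested. Among the arms called in pairs, miR-147-3p, miR-147-5p and miR-25-5p passed the filter through ConA+D8THC alone. Where the arms pointed apart and 1 was called, examples were miR-93 (log2 1.29 for miR-93-5p and -0.63 for miR-93-3p) and miR-342 (1.08 for miR-342-3p and -0.25 for miR-342-5p). Base composition was alike across the classes, with a median GC content of 47.8% in miRNAs called higher, 46.5% in those called lower and 45.5% in the rest, among those with a sequence.

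The place of ConA+Vehicle libraries relative to both groups was read next, as background for the comparison. ConA+Vehicle against Vehicle gave 109 calls (36.7%) and ConA+D8THC against ConA+Vehicle gave 11 (3.70%); each shares libraries with the comparison above. For most of the miRNAs described here the direct contrast between the challenged groups was not called. miR-223-3p was at 26055 and 30942 CPM in ConA+Vehicle, above the 20275 and 14355 CPM of ConA+D8THC, with a log2 difference of -0.72 ± 0.23 and adjusted p = 0.106. Without Vehicle replicate 1 or 2 that difference was called (log2 -0.71 and -0.70, adjusted p = 0.0380 and 0.0282). miR-155-5p was at 9117 and 8481 CPM in ConA+Vehicle, with a difference of log2 -0.47 and adjusted p = 0.349. miR-126a-3p was at 88015 and 99394 CPM in ConA+Vehicle, below ConA+D8THC by log2 0.85 (adjusted p = 0.0795), and was called without Vehicle replicate 1 or 2 (0.0211 and 0.0129), with library totals (0.0334) and by DESeq2 (0.0144). miR-99a-5p and miR-199a-3p, each higher in ConA+D8THC than in ConA+Vehicle by log2 0.82 and 0.79, were likewise not called (adjusted p = 0.0765 and 0.0929) but were without Vehicle replicate 1 (0.0380 and 0.0196) or 2 (0.0282 and 0.00643), without ConA+D8THC replicate 1 (0.0422 and 0.00973) and by DESeq2 (0.0381 and 0.0436). A p that misses the threshold does not show that the groups were alike.

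Of the 97 miRNAs called against Vehicle, 7 were also called between the challenged groups. All 11 calls of that contrast, these 7 among them, were lower in ConA+D8THC than in ConA+Vehicle. The 7 were miR-122-5p, miR-194-5p, miR-802-5p, miR-216a-5p, miR-217-5p, miR-375-3p and miR-6538. miR-122-5p and miR-194-5p stood higher in ConA+Vehicle than in either other group, at 137538 and 177746 CPM and at 4162 and 4315 CPM. The rare arm miR-122-3p did not, at 84.7 and 66.1 CPM in ConA+Vehicle against 157 and 189 CPM in Vehicle and 27.8 and 28.4 CPM in ConA+D8THC. For miR-122-5p and miR-194-5p the differences of ConA+D8THC from ConA+Vehicle were log2 -1.68 ± 0.30 (adjusted p = 0.00999) and -1.79 ± 0.26 (adjusted p = 0.00399). miR-802-5p was 5.61-fold lower than in ConA+Vehicle, and its log2 difference of -2.49 was -3.26 without ConA+D8THC replicate 2. miR-375-3p lost the call against ConA+Vehicle without ConA+Vehicle replicate 1 (log2 -1.94) and with DESeq2 (adjusted p = 0.0507). miR-217-5p lost it without ConA+Vehicle replicate 1 or without ConA+D8THC replicate 1. miR-6538 lay between the other groups, 5.30-fold below ConA+Vehicle (157 and 198 CPM) and above Vehicle; its log2 difference from ConA+Vehicle of -2.41 was -1.81 without ConA+D8THC replicate 1 and -3.22 without replicate 2. miR-192-5p, not called against Vehicle, was called against ConA+Vehicle (8527 and 11503 CPM, log2 -1.70, adjusted p = 0.00863).

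**Figure D5:**
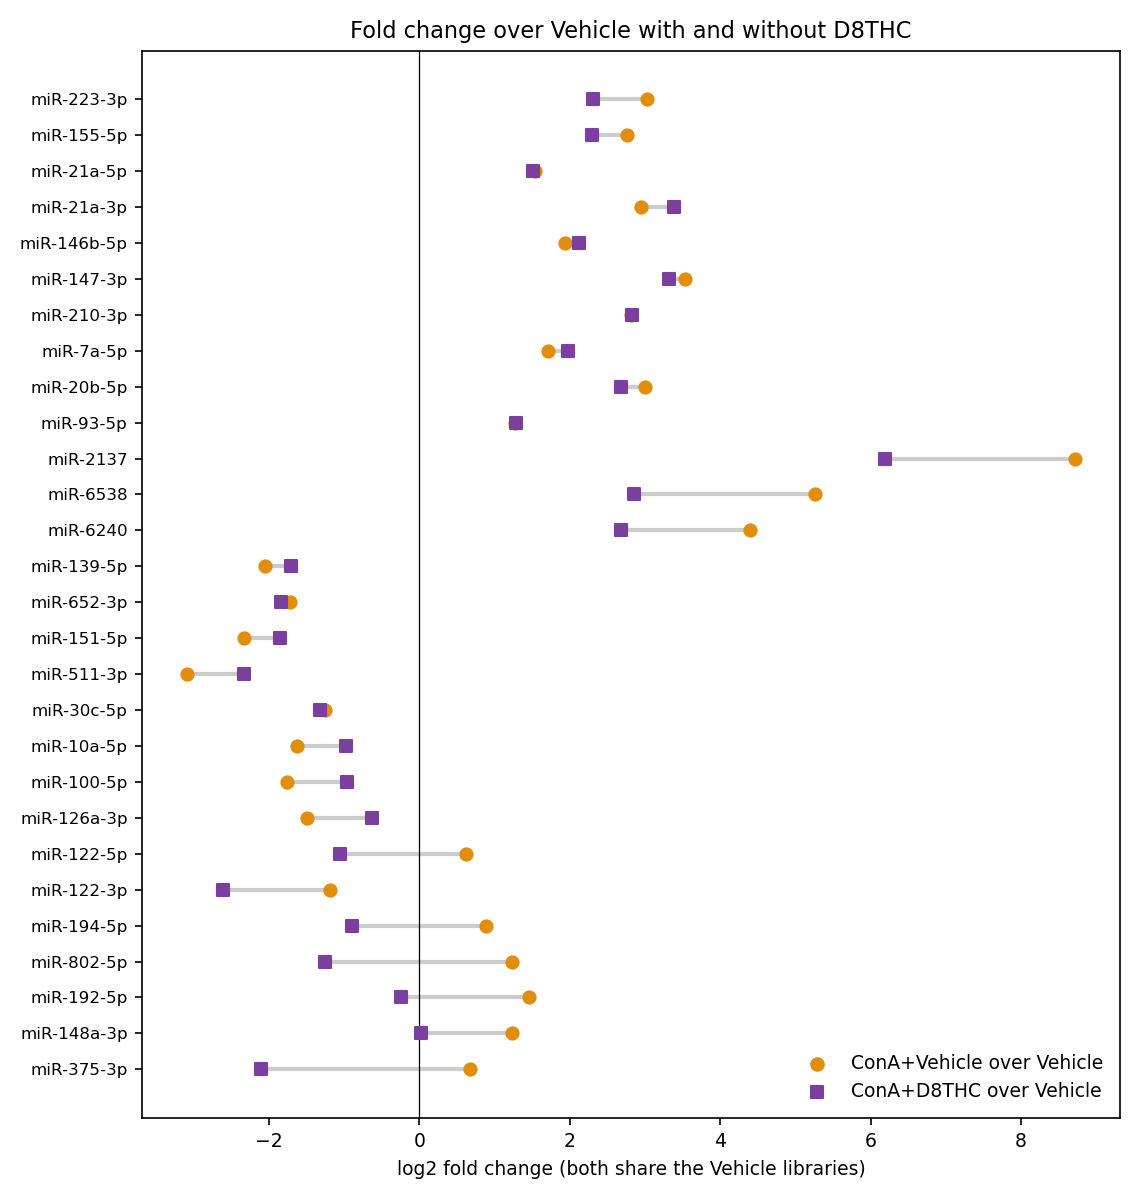
Each line joins the log2 fold change over Vehicle of ConA+Vehicle (circles) and of ConA+D8THC (squares) for 28 miRNAs; both values share the Vehicle libraries. For the inflammation and proliferation miRNAs at the top both symbols lie on the right, and for hepatocyte miRNAs such as miR-122-5p, miR-194-5p and miR-802-5p the circle lies right of 0 and the square left of it.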

How the data were processed

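Small RNA libraries (QIAseq miRNA kit, per the labels) were made from liver immune cells. Values are the raw, unnormalized counts of each mature miRNA as the authors deposited them, with build mm10 per the submitters' processing notes; aligner, version and any use of molecular identifiers: not given in the sources used here. EdgeR's quasi-likelihood test (edgeR 4.0.16 in R 4.3.3) used filterByExpr, TMM scaling, and glmQLFit and glmQLFTest with robust estimation on all 6 libraries with group as the only factor, which leaves 3 residual degrees of freedom. Benjamini-Hochberg adjustment ran over the 297 tested miRNAs, and a miRNA was called under 0.05. All adjusted p-values are from this test unless a setting is named. Standard errors are the absolute log2 change over the square root of F. CPM use TMM-scaled totals. A count of 3 is 2.63 to 4.14 CPM in the Vehicle libraries. Shares were not tested, since an exact two-sided permutation of 2 against 2 libraries cannot go below 0.333.

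Hairpin positions and sequences came from RefSeq GRCm38.p6 and host genes from GENCODE M21, both mm10. Clusters are hairpins within 10 kb. The 27 miRNA lists and the comparison itself were chosen with earlier results of these data known. Named were the 10 largest called changes in each direction (mean of at least 10 CPM, groups apart), the 8 most abundant called miRNAs in each direction, the 4 most abundant members of each list, the 5 most abundant miRNAs and those called between both challenged groups. Other arms, cluster mates and miRNAs with the same seed were added; miR-6236 and miR-9-5p were picked once their values were known. The fit was tested on simulated data. Alternatives were DESeq2 1.42.0, limma 3.58.1 (voom), other scalings and filters, a replicate block, 4 libraries only, and leaving out cell marker lists or each library. Figures were drawn in Python 3.11.15 with matplotlib 3.10.9.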

Additional observations from a re-analysis of the deposited data

How the results depend on the processing

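Of the 97 called miRNAs, 46 (34 higher and 12 lower) kept their call and direction in each of the 15 alternatives in which they were tested. A miRNA that an alternative left out was not counted as lost there. Of the 97, 0 were significant with the opposite sign in any. Leaving out each library in turn gave 63 to 112 calls, 44 to 64 higher and 19 to 48 lower; the lowest of each came without ConA+D8THC replicate 1. The replicate numbers share only a number in the labels: deviations of same-numbered libraries correlated at 0.20, 0.24 and 0.07 in the 3 group pairs. With replicate number as a block, 133 were called, 69 higher and 64 lower, against 55 and 42 without it. Every other setting gave 73 (DESeq2) to 103 (RLE size factors) calls. Of the 97 calls, 24 were lost with DESeq2, 19 with no filter on counts and 5 with a filter at a mean of 10 CPM. Library totals moved the median of all tested by 0.11 on the log2 scale and the share of calls that were higher from 56.7% to 64.9%, and leaving out the endothelial, hepatocyte, pancreas and erythroid lists moved them by 0.14 and to 65.7%. The medians of the lymphocyte, resting lymphocyte and miR-15 and miR-16 lists, all near 0, changed sign with library totals and with those lists left out. The groups of 2 limit every comparison, and a miRNA under 3 counts in a group has only a bound or a counting interval.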

Other observations

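Of 8 tested miRNAs of the Sfmbt2 intron cluster, looked at after its values were seen, 2 were higher and 6 not called, beside 18.5% called higher over all tested. The 6 not called had log2 changes from -0.06 to 1.42. miR-466b-3p, made by 8 hairpins there, was at 9.65 and 16.6 CPM in Vehicle and 55.7 and 39.8 CPM in ConA+D8THC (log2 1.81 ± 0.40, adjusted p = 0.00675), and it passed the filter through ConA+D8THC alone. The other was miR-467c-5p (log2 1.07, adjusted p = 0.0307). Its call was lost without Vehicle replicate 2 (log2 0.91) or either ConA+D8THC library (log2 1.19 and 1.02) and with no filter on counts (adjusted p = 0.130).

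Also chosen after its values were seen, miR-365-3p was at 189 and 183 CPM in Vehicle and at 70.1 and 64.0 CPM in ConA+D8THC, with close replicates in both groups (2.76-fold lower, adjusted p = 0.00500). In ConA+Vehicle it was at 137 and 126 CPM, between the others, and the difference of ConA+D8THC from ConA+Vehicle was not called (log2 -0.97, adjusted p = 0.106). miR-140-3p rose 2.19-fold, from 858 and 739 CPM to 1899 and 1603 CPM, while miR-140-5p of the same hairpin was at 314 and 271 CPM against 229 and 297 CPM and was not called.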
